A study of Physcomitrium patens with 3 samples.

Results

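Loci of 31 to 200 bp on the larger nuclear scaffolds of the moss Physcomitrium patens were examined in double-stranded RNA sequencing libraries. A locus is a stretch of the genome at which the authors counted reads, and each carries a cluster number and coordinates but no gene name. Members were chosen from their coordinates alone, as loci on scaffolds numbered under 500 whose length from start to end was 31 to 200 bp. Their places in genes, exons, introns or repeats were not analysed here, and the tables give no strand. This gave 7122 of the 39975 loci in the deposited tables. They lay on 464 of the 485 such scaffolds that carry a locus. The libraries came from protonemata, the filamentous juvenile tissue, of the mutants labelled rdr2 and rdr6 and of wild type, all harvested at 10 days, grown on a medium with 50 mM ammonium tartrate and given no treatment. The labels do not state the mutant alleles or the number of lines. Each genotype had 1 library, so nothing here was tested between genotypes or checked in replicates, and "higher" and "lower" are said of these 3 libraries alone. In such bulk libraries, fewer cells of a type and less RNA per cell cannot be told apart.

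RNA-dependent RNA polymerases copy single-stranded RNA into a second strand, and the duplex can then be cut into small interfering RNAs. In Arabidopsis thaliana, RDR2 serves the pathway that makes heterochromatic small interfering RNAs from transposons and repeats, and RDR6 the pathway that makes trans-acting small interfering RNAs from cleaved transcripts. A library made after digestion of single strands also holds RNA that folds back on itself, such as hairpins and structured non-coding RNAs, and pairs of sense and antisense transcripts. The design asks which of these double-stranded RNAs are less or more abundant when either polymerase is missing. One point bears on every statement about rdr2: the name of that library's table gives a different rdr number from its label, and here the label is used. Without gene names the RDR2 and RDR6 genes themselves could not be looked up, so the genotypes were not checked in the data.

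The library totals were 9703597 reads for rdr2, 9346061 for rdr6 and 6992269 for wild type. Members held 64364 reads in rdr2, 315399 in rdr6 and 175908 in wild type. These were 0.740% of the reads in loci for rdr2 (exact 95% Clopper-Pearson interval 0.734 to 0.746), 3.90% for rdr6 (3.89 to 3.92) and 2.97% for wild type (2.95 to 2.98). Loci over 1000 bp on the same scaffolds held 11.1% of the locus reads of rdr2, 5.30% of those of rdr6 and 5.86% of those of wild type. Intervals here and below cover counting error only. Values in RPM are the authors' reads scaled to the library total, and the 3 reads that a count of 0 allows were worth 0.309 RPM in rdr2, 0.321 RPM in rdr6 and 0.429 RPM in wild type.

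Nearly as many members had no read as had one. No library had a read at 3339 of the 7122 members (46.9%), where 59.5% of all loci had none. The list thus holds loci that these libraries do not show, and how it was drawn up is not stated in the sources at hand. Of the other members, 2775 had 1 to 19 reads over the 3 libraries and 1008 had 20 or more. At least 1 read was found at 2509 members in rdr2 (35.2%), at 3311 in rdr6 (46.5%) and at 3043 in wild type (42.7%). All 3 libraries had reads at 2083 members. Although rdr2 had the largest raw total, it had the fewest members detected, and reduced to the wild-type total the expected numbers were 2255.8 members in rdr2 and 3100.2 in rdr6. By TMM factors, which weigh the libraries by the reads of most loci, rdr2 was the smallest library, with effective totals of 5250403 reads for rdr2, 10716035 for rdr6 and 7401724 for wild type. At equal effective totals the expected numbers were 2509 in rdr2 (35.2%), 2771.8 in rdr6 (38.9%) and 2782.6 in wild type (39.1%), so that rdr2 was still lowest, by less, and rdr6 no longer stood above wild type. With a minimum of 3 reads, 1315 members were detected in rdr2, 2178 in rdr6 and 1850 in wild type, with the libraries in the same order as for 1 read. Reads in a single library only were found at 84 members for rdr2, 426 for rdr6 and 276 for wild type, most of which had too few reads for a ratio. Of all 39975 loci, 753, 3001 and 1907 were so in that order, each a larger share than among members. A member missed in a library was not detected at this depth, which does not show that it was absent.

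**Figure D1:**
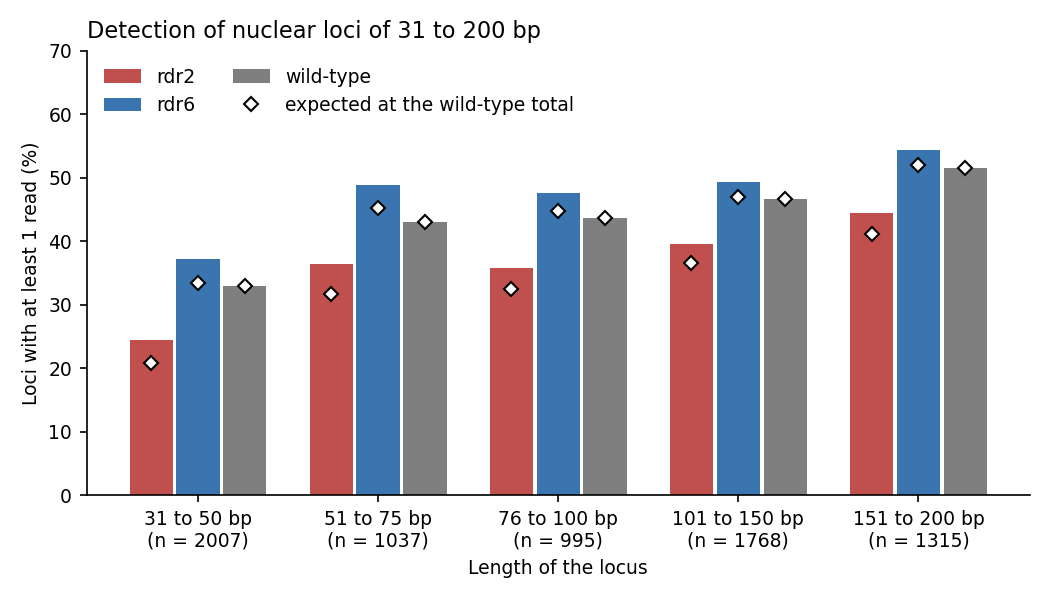
Share of loci with at least 1 read in rdr2, rdr6 and wild type (bars, in percent) by length of the locus, with the share expected after reduction to the wild-type library total (open diamonds). In each of the 5 length classes the rdr2 bar is the lowest, and it is lower still at the wild-type total.

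The longest members were seen more often than the shortest in every library. In rdr2, detection was 24.4% of the 2007 members of 31 to 50 bp and 44.5% of the 1315 members of 151 to 200 bp. For rdr6 the same classes stood at 37.2% and 54.4%, and for wild type at 32.9% and 51.5%. The neighbouring length classes of the same scaffolds framed these values. Loci of 30 bp or less were detected at 12.4% in rdr2, 24.1% in rdr6 and 19.9% in wild type, and loci of 201 to 1000 bp at 68.7%, 73.9% and 74.0% in the same order. A longer stretch offers more places for a read, so detection was also set against length. Among the members with 20 or more reads, the median level was 9.37 RPM per kb in rdr2, 29.5 RPM per kb in rdr6 and 27.5 RPM per kb in wild type. From the shortest class of 31 to 50 bp to the longest of 151 to 200 bp, these medians ran from 23.3 down to 5.83 RPM per kb in rdr2, from 53.5 down to 13.8 in rdr6 and from 50.6 down to 14.2 in wild type. The rdr6 medians fell unsteadily, with 25.7 RPM per kb at 76 to 100 bp and 34.4 at 101 to 150 bp. The minimum of 20 reads asks for more reads per kb of a short locus, and its part in this gradient was not tested. Pooled over all members without this minimum, levels of the shortest and longest class were 5.64 and 5.49 RPM per kb in rdr2. They were 16.5 and 32.9 in rdr6 and 12.97 and 24.02 in wild type, so the shortest class was lower there. At 101 to 150 bp the pooled levels were 14.7, 87.1 and 60.4 in that order. Members with most reads weigh most in pooled levels.

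**Figure D2:**
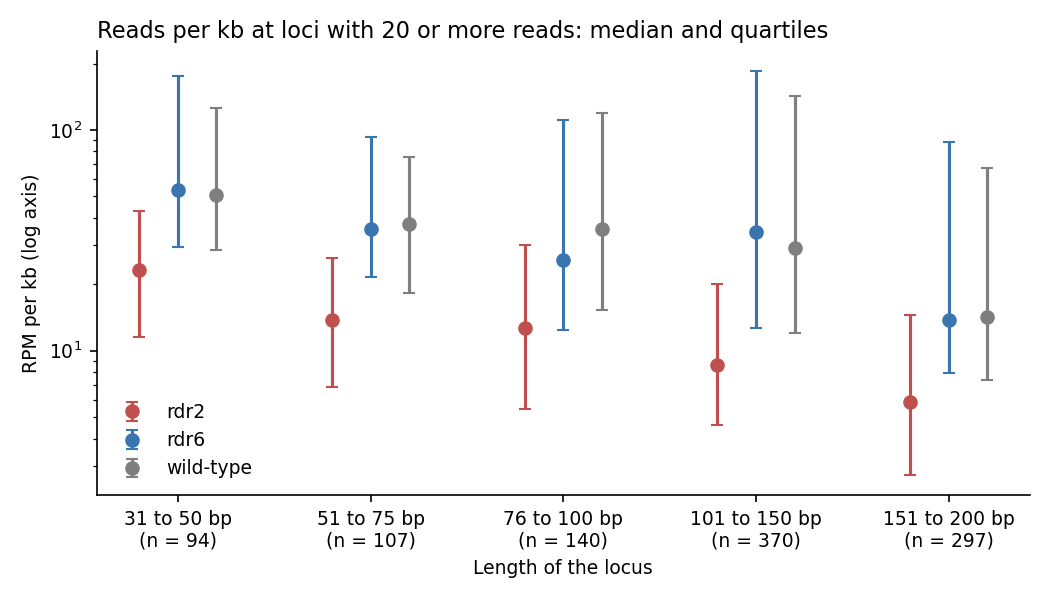
Level per length (RPM per kb, log axis) of the loci with 20 or more reads in rdr2, rdr6 and wild type, by length of the locus. Points are medians over loci and bars run between the quartiles. The rdr2 median is the lowest in each length class, at 5.83 to 23.3 RPM per kb.

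Members did not contribute evenly. The 71 members with most reads in a library, 1% of them, held 73.2% of the member reads of rdr2, 73.8% of those of rdr6 and 70.9% of those of wild type. The most abundant in every library was Cluster_27213 (scaffold_191, 487046 to 487165), with 14783 reads in rdr2, 36252 in rdr6 and 23031 in wild type. Its level was 12696 RPM per kb in rdr2, 32324 in rdr6 and 27448 in wild type, which was 2.16-fold lower in rdr2 than in wild type (2.12 to 2.21) and 1.18-fold higher in rdr6 (1.158 to 1.197). Its log2 ratio of rdr2 to wild type was -1.11 on the RPM scale, but -0.14, 0.11 and 0.26 under the 3 other scalings described with the ratios, so its direction in rdr2 turns with the scaling. It made up 23.0% of all member reads of rdr2, 11.5% of those of rdr6 and 13.1% of those of wild type. Next in rdr6 and wild type was Cluster_34839 (scaffold_329, 276591 to 276661), with 1122 reads in rdr2, 19171 in rdr6 and 14191 in wild type. It had 1629 RPM per kb in rdr2, against 28891 in rdr6 and 28585 in wild type. Per kb, these loci were close to each other in wild type and in rdr6, and far apart in rdr2.

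Further abundant members showed 3 kinds of pattern. Cluster_18964 (scaffold_98, 406635 to 406714) and Cluster_17678 (scaffold_88, 748195 to 748288) differed little between rdr2 and wild type on the RPM scale, at 1.08-fold (1.03 to 1.13) and 0.951-fold (0.904 to 1.00) of wild type. Cluster_18964 had 6608 RPM per kb in rdr2, 9129.5 in rdr6 and 6134 in wild type. Cluster_17678 had 3905, 3296 and 4108 RPM per kb in that order. Under each of the 3 other scalings both stood above wild type in rdr2. A second pair was lower in rdr2 and moderately higher in rdr6: Cluster_31863 (scaffold_264, 209933 to 210102) was 3.497-fold lower in rdr2 (3.30 to 3.70) and 1.42-fold higher in rdr6 (1.37 to 1.48). Cluster_17146 (scaffold_84, 914710 to 914854) was 3.34-fold lower in rdr2 and 1.46-fold higher in rdr6. The third kind was much lower in rdr2 and about 2-fold higher in rdr6. Cluster_19063 (scaffold_99, 480428 to 480542) had 571 reads in rdr2, 9208 in rdr6 and 3498 in wild type, 8.50-fold lower in rdr2 (7.78 to 9.30) and 1.97-fold higher in rdr6 (1.89 to 2.05). Cluster_32522 (scaffold_276, 373140 to 373339) was 5.83-fold lower in rdr2 and 2.05-fold higher in rdr6. Cluster_17950 (scaffold_90, 1324172 to 1324273) was 7.34-fold lower in rdr2 and 2.24-fold higher in rdr6.

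The comparison of rdr2 with wild type found most members lower in rdr2 on the RPM scale. Ratios were examined at the 1008 members with 20 or more reads over the 3 libraries, and a locus was called when the ratio of RPM was at least 4 and its exact 95% interval lay wholly beyond 2-fold. The minimum is on summed reads, so a locus can pass it through the same library that then stands high in its ratio. In rdr2, 364 members were called lower, 36.1% of those examined, where 26.2% of all 3763 examined loci were called lower. Only 3 members were called higher in rdr2, against 0.505% of all examined loci. The median log2 ratio of members was -1.75 (order-statistic 95% interval -1.87 to -1.66) and that of all examined loci -1.41. On the same scaffolds, loci of 30 bp or less had a median of -1.70 (-1.78 to -1.55), with 30.8% called lower. Those of 201 to 1000 bp had -1.26, with 17.3% called lower. On scaffolds numbered 500 and up, the 44 examined loci of 31 to 200 bp had -2.43, with 59.1% called lower. Of the 1008 members, 902 lay below wild type, as did 3335 of all 3763 examined loci, which is nearly the same share. Summed over all members, reads were 3.79-fold lower in rdr2 than in wild type (3.76 to 3.83), at 6633.0 RPM in rdr2 against 25157 RPM in wild type. Outside the 1% of members with most reads the pooled value was 3.67-fold lower.

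The size of these ratios depends on how the libraries are scaled, because all loci are shifted together. Scaling by TMM factors, by median-of-ratios size factors or by the reads outside the 1% of loci with most reads moved every log2 ratio of rdr2 to wild type up by 0.97, 1.22 and 1.37. Members called lower then numbered 152, 115 and 95, and those called higher 11, 19 and 27. The lower shares were 15.1%, 11.4% and 9.42% of members, beside 9.25%, 6.94% and 5.77% of all examined loci. The higher shares were 1.09%, 1.88% and 2.68%, beside 1.97%, 2.82% and 3.45%. The distance of the member median from the median of all examined loci, -0.34 on the log2 scale, does not change with scaling. On that footing 585 members (58.0%) lay below the median of all examined loci and 423 above it. Under all 4 scalings 95 members were called lower in rdr2, and the same 3 higher.

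Members with more reads stood further below wild type in rdr2. The median log2 ratio was -1.16 for the 480 members with 20 to 49 reads over the 3 libraries, -1.35 for the 160 with 50 to 99, -2.26 for the 137 with 100 to 299, -2.78 for the 151 with 300 to 999 and -2.81 for the 80 with 1000 or more. The share called lower in these classes was 10.6%, 29.4%, 59.9%, 83.4% and 72.5%, but fewer reads also make a call harder to reach. Loci of 201 to 1000 bp had medians of -1.21, -1.12, -1.19, -1.68 and -2.26 in the same read classes. In loci of 30 bp or less the values were -1.57, -1.95, -1.62, -1.89 and -1.08, with no steady order. By length, members of 101 to 150 bp had the lowest median, -2.02, with 164 of 370 called lower, and those of 31 to 50 bp the highest, -1.26, with 24 of 94 called lower.

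**Figure D3:**
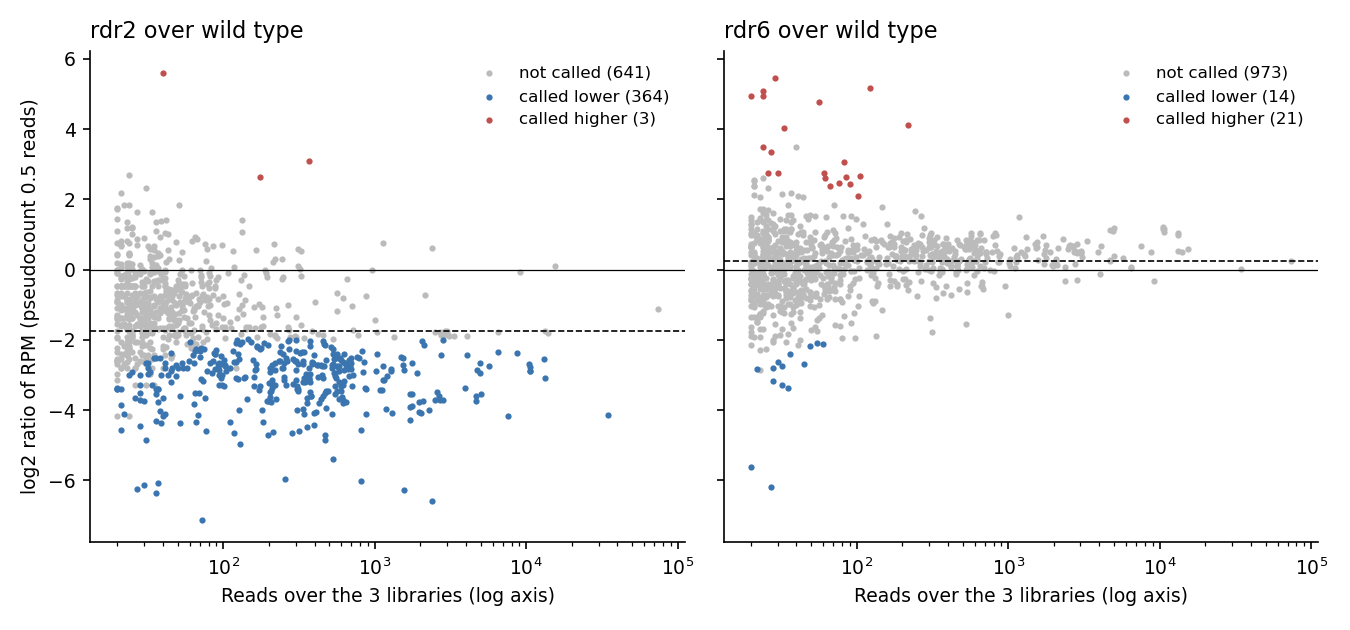
log2 ratio of RPM (pseudocount of 0.5 reads) of the 1008 loci with 20 or more reads against their reads over the 3 libraries (log axis), for rdr2 over wild type and rdr6 over wild type. The dashed line is the median over these loci, at -1.75 for rdr2 and 0.25 for rdr6. Blue points are called lower and red points higher. The 364 loci called lower in rdr2 spread over the whole range of reads, whereas the 14 lower and 21 higher in rdr6 have few reads.

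The 10 members lowest in rdr2, ordered by the interval bound nearest to 1, had levels in rdr6 that ran from 3.04-fold lower than wild type (Cluster_37015) to 1.59-fold higher (Cluster_25612). Cluster_8975 (scaffold_34, 2138772 to 2138893) led this order and had 1.65 RPM in rdr2, against 129.9 RPM in rdr6 and 163.9 RPM in wild type. Cluster_23090 (scaffold_138, 334980 to 335122) had 10 reads in rdr2, 962 in rdr6 and 590 in wild type, 81.9-fold lower in rdr2 than in wild type (44.2 to 172). For Cluster_37312 (scaffold_410, 29097 to 29251) the counts were 7, 456 and 348 in that order. In rdr6 the level was 1.22-fold of wild type (1.10 to 1.35) at Cluster_23090 and 0.980-fold (0.851 to 1.13) at Cluster_37312. The rdr2 library stood far lower at both. Cluster_24020 (scaffold_149, 377574 to 377630) had 8 reads in rdr2, 265 in rdr6 and 258 in wild type, 44.8-fold lower in rdr2 (22.4 to 105). Cluster_11893 (scaffold_50, 548702 to 548822) had 2, 141 and 111 reads, 77.0-fold lower (20.8 to 644). No rdr2 read was found at Cluster_37015 (scaffold_399, 200209 to 200397), which had 22 reads in rdr6 and 50 in wild type. It was 23.1-fold lower in rdr2 with the 0 set at 3 reads, and its exact interval began at 18.1-fold. Cluster_34839, described above, was 17.6-fold lower in rdr2 (16.5 to 18.7), and in rdr6 it was at 1.01-fold of wild type (0.989 to 1.03). Cluster_10557 (scaffold_43, 97566 to 97612), Cluster_25612 (scaffold_168, 766099 to 766205) and Cluster_27020 (scaffold_188, 352447 to 352559) were 30.2-fold, 17.9-fold and 27.4-fold lower in rdr2. All 10 were called under each scaling, with smaller folds outside the RPM scale.

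Against this background 3 members were called higher in rdr2. Cluster_13890 (scaffold_62, 1807386 to 1807533) had 302 reads in rdr2, 39 in rdr6 and 25 in wild type, or 31.1, 4.17 and 3.58 RPM. Its ratio to wild type was 8.70-fold in rdr2 (5.78 to 13.7). Cluster_20854 (scaffold_115, 653118 to 653251) had 142 reads in rdr2, 17 in rdr6 and 16 in wild type, 6.40-fold higher in rdr2 (3.80 to 11.5). Cluster_5405 (scaffold_18, 1687978 to 1688083) had 33 reads in rdr2, 7 in rdr6 and none in wild type. It was 7.93-fold higher in rdr2 against a floor of 3 reads in wild type, and its exact interval began at 6.09-fold. All 3 were between 106 and 148 bp long, and at each of them rdr6 held fewer reads than rdr2. Among the 1008 examined members, 15 had no read in rdr2, 2 none in rdr6 and 5 none in wild type. Among all 3763 examined loci the numbers were 107, 6 and 11, so a lack of rdr2 reads was rarer among members.

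In the comparison of rdr6 with wild type few members differed. In rdr6, 14 members were called lower, 1.39% of those examined, beside 1.51% of all examined loci. Members called higher in rdr6 numbered 21 (2.08%), beside 1.54% of all examined loci, so both shares were near the background. The member median was a log2 ratio of 0.25 (0.21 to 0.31) and that of all examined loci 0.10. Loci of 30 bp or less had 0.27 and those of 201 to 1000 bp 0.02. Summed over all members, reads were 1.34-fold higher in rdr6 (1.33 to 1.35), at 33747 RPM in rdr6 against 25157 RPM in wild type. They were 1.198-fold higher outside the 1% of members with most reads. Under each of the 3 other scalings 16 members (1.59%) were called lower and 19 (1.88%) higher. Of all examined loci, 1.65% to 1.70% were then called lower and 1.33% to 1.49% higher. With a minimum of 50 reads 2 were called lower and 12 higher.

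Members called lower in rdr6 were thinly covered, with 20 to 60 reads over the 3 libraries. Cluster_25171 (scaffold_163, 343114 to 343144), at the lower edge of the length range, had 27 reads in wild type and none in either mutant. It was 12.03-fold lower in rdr6 with its 0 set at 3 reads, and its exact interval began at 9.13-fold. Cluster_19612 (scaffold_104, 412785 to 412858) had 2 reads in rdr2, none in rdr6 and 18 in wild type. By the same rule it was 8.02-fold lower in rdr6, with an exact interval from 5.88-fold. Cluster_29110 (scaffold_219, 250867 to 250982) had 4, 3 and 25 reads in that order, 11.1-fold lower in rdr6 (3.399 to 57.6). Wild type was the high library at all of these, and the same held for the next ones. Cluster_16376 (scaffold_79, 347814 to 347990) had 2 reads in rdr2, 3 in rdr6 and 23 in wild type. Cluster_30530 (scaffold_243, 593008 to 593194) had 8, 6 and 31 reads, and Cluster_2600 (scaffold_7, 2886292 to 2886356) had 1, 4 and 23. At Cluster_9423 (scaffold_37, 503231 to 503313) and Cluster_8087 (scaffold_30, 2039620 to 2039705) rdr2 had no read, rdr6 had 5 and 7, and wild type 25 and 29. Cluster_2554 (scaffold_7, 2422213 to 2422246) and Cluster_7082 (scaffold_25, 1650501 to 1650638) were 8.02-fold (2.34 to 42.5) and 4.496-fold (2.25 to 9.77) lower in rdr6. All the loci named here but Cluster_7082 reached the minimum of 20 reads only with their wild-type reads, so that value also selected them. The comparison of rdr2 with wild type shares the wild-type library with this one, so the low rdr2 counts of these loci are given as values only.

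Members called higher in rdr6 had up to 218 reads over the 3 libraries. Cluster_28748 (scaffold_213, 572373 to 572523) had no read in rdr2, 120 in rdr6 and 2 in wild type, or 12.8 RPM in rdr6 and 0.286 RPM in wild type. Cluster_10511 (scaffold_42, 1607907 to 1607939) had 14 reads in rdr2, 196 in rdr6 and 8 in wild type, 18.3-fold higher in rdr6 (9.12 to 43.1). The adjacent member Cluster_10510 (scaffold_42, 1603284 to 1603327) had 4, 72 and 6 reads, 8.98-fold higher (3.93 to 25.3). In both the rdr6 library alone was high. Cluster_12314 (scaffold_52, 1913646 to 1913714) had none, 32 and 1 reads, with a ratio of 23.9-fold and an interval from 4.0 to 975. No wild-type read was found at Cluster_11430 (scaffold_47, 1290873 to 1291034), Cluster_10809 (scaffold_44, 771202 to 771263), Cluster_16068 (scaffold_77, 330127 to 330262) or Cluster_8900 (scaffold_34, 1066120 to 1066181). Their rdr6 libraries held 29, 22, 20 and 20 reads. Against a floor of 3 reads in wild type these loci were 7.23-fold, 5.49-fold, 4.99-fold and 4.99-fold higher in rdr6. Their exact intervals began at 5.52-fold, 4.10-fold, 3.69-fold and 3.69-fold. In rdr2 the same loci had 0, 2, 4 and 0 reads. Cluster_33268 (scaffold_291, 117442 to 117559) had 7 reads in rdr2, 88 in rdr6 and 10 in wild type, 6.58-fold higher in rdr6 (3.42 to 14.2). Cluster_27151 (scaffold_190, 318965 to 319114) completed the 10, with 1 read in rdr2, 54 in rdr6 and 1 in wild type. All of the 10 but Cluster_10511 reached the minimum of 20 reads only with their rdr6 reads, so that value also selected them.

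**Figure D4:**
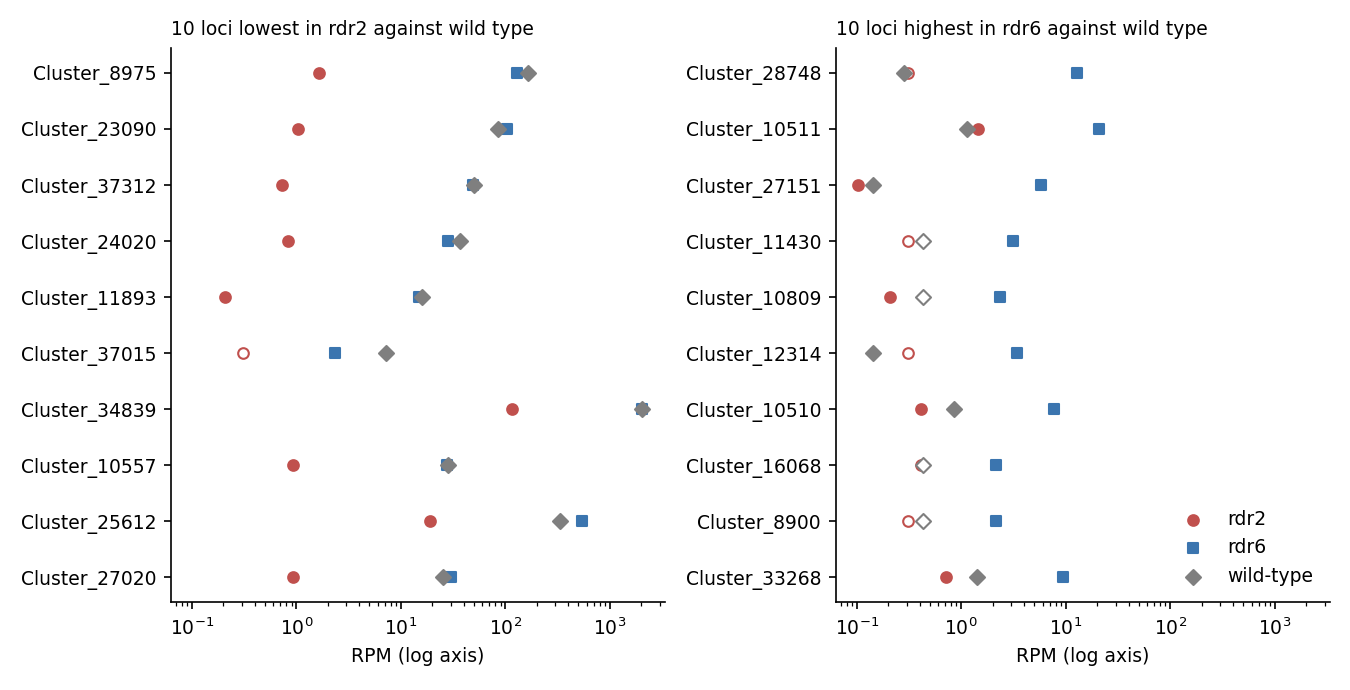
RPM (log axis) in rdr2 (circles), rdr6 (squares) and wild type (diamonds) at the 10 loci lowest in rdr2 against wild type (left) and the 10 highest in rdr6 against wild type (right). Open symbols stand for a count of 0 and are drawn at the floor of 3 reads, 0.309 to 0.429 RPM. The loci were chosen by these ratios, so the distance of rdr2 from wild type on the left, and of rdr6 on the right, follows from the choice. On the left, rdr6 lies nearer to wild type than rdr2 does, though at Cluster_37015 it is 3.04-fold lower than wild type.

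The mutants were also set against each other, which leaves out wild type. In rdr6, 432 members (42.9%) were called higher than in rdr2, where 31.6% of all examined loci were, and 7 (0.694%) were called lower, where 1.01% of all examined loci were. The member median of rdr6 over rdr2 was a log2 ratio of 1.94 (1.80 to 2.10), beside 1.48 for all examined loci. With TMM factors 216 were higher and 28 lower in rdr6, with median-of-ratios size factors 183 and 33, and with the reads outside the top 1% 147 and 43. The higher shares were 21.4%, 18.2% and 14.6% of members, beside 12.5%, 10.1% and 8.00% of all examined loci. The lower shares were 2.78%, 3.27% and 4.27%, beside 3.96%, 4.70% and 5.71%. Several members abundant in rdr6 had few reads in rdr2. Cluster_10298 (scaffold_41, 1265696 to 1265847) had 588 reads in rdr6, 12 in rdr2 and 215 in wild type, 50.9-fold higher in rdr6 than in rdr2 (28.9 to 99.0). Cluster_19258 (scaffold_100, 1351848 to 1351937) had 917, 21 and 242 reads in that order, 45.3-fold higher (29.5 to 73.6). At these and the next ones wild type lay between the mutants. Cluster_3105 (scaffold_9, 2640006 to 2640176), Cluster_15258 (scaffold_71, 1185671 to 1185808) and Cluster_16136 (scaffold_77, 879464 to 879634) were 37.9-fold, 33.0-fold and 29.4-fold higher in rdr6 than in rdr2.

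The 7 members lower in rdr6 than in rdr2 included Cluster_13890 and Cluster_20854, named above. Cluster_34107 (scaffold_309, 404989 to 405065) had 9 reads in rdr6, 98 in rdr2 and 26 in wild type, 10.5-fold lower in rdr6 than in rdr2 (5.30 to 23.6). Cluster_12575 (scaffold_54, 503721 to 503755) had 9, 62 and 27 reads in that order, 6.64-fold lower (3.28 to 15.2). At both, wild type lay between the mutants on the RPM scale. The remaining 3 each had a single rdr6 read. Cluster_20770 (scaffold_114, 1061065 to 1061095) had 23 reads in rdr2 and 11 in wild type, and its ratio was 22.2-fold with an interval from 3.60 to 912.5. Cluster_14284 (scaffold_65, 609074 to 609173) had 17 and 5, and Cluster_23184 (scaffold_139, 89133 to 89188) had 16 and 3.

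Members sat close to other loci of the list. The nearest other locus was a median of 512 bp away from edge to edge (quartiles 311 and 1361), against 1793 bp for loci of 30 bp or less and 372 bp for loci of 201 to 1000 bp. Another locus lay within 10 kb of 6631 members (93.1%) and within 1 kb of 4907 (68.9%). The median member had 4 other loci within 10 kb, and the most crowded had 25. Another member lay within 10 kb of 60.4% of them, a locus over 200 bp of 35.3% and one of 30 bp or less of 85.1%. Of 38081 gaps between consecutive loci on these scaffolds, 28 were under 200 bp and 3272 were 200 to 300 bp, so consecutive loci of the list are rarely closer than 200 bp.

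What the neighbours carried differed with the reads of the member. The nearest locus had a read in some library for 527 of 3339 members without a read (15.8%), for 1953 of 2775 members with 1 to 19 reads (70.4%) and for 783 of 1008 members with 20 or more (77.7%). Members without a read were not more isolated, since 93.9% of them had another locus within 10 kb, against 89.2% of those with 20 or more reads. A locus with 20 or more reads lay within 10 kb of 7.46% of members without a read and of 55.5% of the members that had 20 or more themselves. For loci of 201 to 1000 bp the same shares were 6.95% and 68.3%, and for loci of 30 bp or less 8.96% and 20.9%. A locus over 200 bp was near 25.8% of members without a read and 40.6% of those with 20 or more reads.

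Ratios of adjacent loci were compared at 365 consecutive pairs no more than 10 kb apart, both with 20 or more reads and at least 1 of them a member. In rdr6 against wild type, the ratios of the loci of a pair differed by a median of 0.51 on the log2 scale, and 282 pairs (77.3%) differed by no more than 1. In rdr2 against wild type the median difference was 0.92, and 195 pairs (53.4%) were within 1. Over all 832 such pairs on these scaffolds, with or without a member, the medians were 0.50 and 0.80. The ratios themselves also spread more widely in rdr2, with member quartiles of -2.73 and -0.76, against -0.33 and 0.66 in rdr6. In the 365 pairs, both loci lay on the same side of the member median in 63.6% for rdr2 and 63.3% for rdr6. The Spearman correlation within these pairs was 0.27 and 0.43 in that order. In the 102 pairs of 2 members the shares were 69.6% and 58.8%, and the correlations 0.44 and 0.38. Loci of a pair share the libraries and may share a transcript. Of the 21 members called higher in rdr6 than in wild type, 17 had an examined locus within 10 kb and 8 of these (47.1%) had one called higher, against 11 of the 542 other examined members with such a neighbour (2.03%). Among the 14 called lower in rdr6, 7 had an examined locus that near and 1 had one called lower, against 8 of 552 others (1.45%). Of the 364 called lower in rdr2, 171 had an examined neighbour and 106 (62.0%) had one called lower, against 92 of 388 others (23.7%). Called members near each other were each counted: 83 of these 106, and 4 of the 8 in rdr6, had a member with the same call within 10 kb. The others were not matched for reads, on which calls depend. No pair with a member was called in opposite directions in either comparison with wild type. This says little, since only 3 members were called higher in rdr2, 1 of them with an examined locus within 10 kb. Calls in rdr6 against wild type were also few. In rdr6 against rdr2, 1 pair with a member was called in opposite directions.

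**Figure D5:**
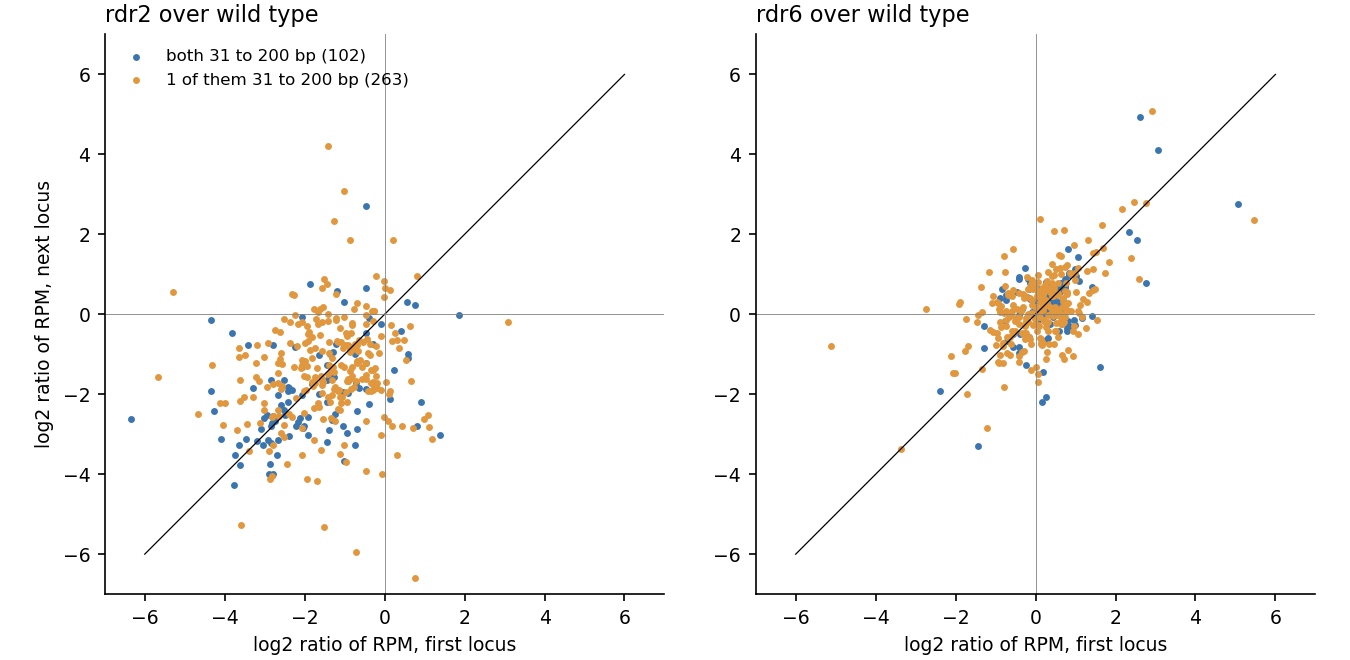
log2 ratio of RPM of consecutive loci no more than 10 kb apart, the first on the horizontal and the next on the vertical axis, for rdr2 over wild type and rdr6 over wild type. Each of the 365 points is a pair, blue where both loci are 31 to 200 bp long (102 pairs) and orange where 1 of them is, and the line marks equal ratios. The median difference within a pair is 0.51 for rdr6 and 0.92 for rdr2, where the ratios as a whole also spread more widely.

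Single neighbourhoods showed both shared and isolated differences. Cluster_13890, higher in rdr2 with a log2 ratio of 3.10, had examined loci on either side that were not: Cluster_13888, Cluster_13889 and Cluster_13891, at 1554, 695 and 825 bp, had log2 ratios of -0.37, -1.02 and -0.20 in rdr2 against wild type. Cluster_23090, at -6.29 in rdr2, had 5 examined loci within 10 kb, among which Cluster_23087 stood at -1.66, Cluster_23088 at -0.23 and the 1750 bp Cluster_23095 at -1.30. Cluster_8975, at -6.59, lay 3731 bp from Cluster_8974 (18 bp), at 0.75. No examined locus beside these 3 was called in rdr2 against wild type. Beside Cluster_11430, 2 of 3 examined loci were also higher in rdr6 than in wild type. Cluster_11431, 520 bp away, had no read in rdr2, 37 in rdr6 and 5 in wild type, and Cluster_11432, 1303 bp away, had 2, 24 and 2. The exception was Cluster_11427, 5801 bp away, with 10, 11 and 9 reads and a log2 ratio of -0.14 in rdr6 against wild type. Around Cluster_34107, Cluster_34110 (236 bp long, 1059 bp away) was likewise lower in rdr6 than in rdr2, with 3 reads in rdr6, 37 in rdr2 and 7 in wild type. Against wild type Cluster_34110 was not called in either mutant on the RPM scale. Cluster_34114, 9785 bp from Cluster_34107, went the other way, with 13 reads in rdr6, 3 in rdr2 and 5 in wild type. Of the 10 members lowest in rdr2, 4 had no other locus within 10 kb, among them Cluster_34839.

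Some members, on the same or different scaffolds, resembled each other in length and counts. Among the 368 members with 100 or more reads, 10 pairs had the same length and counts within 1.2-fold of each other in every library, which involved 17 loci. Cluster_20443 (scaffold_112, 20475 to 20671), Cluster_20452 (scaffold_112, 118982 to 119178) and Cluster_27714 (scaffold_198, 787256 to 787452) were each 197 bp long. They had 372, 356 and 368 reads in rdr2, 1725, 1750 and 1715 in rdr6, and 906, 910 and 993 in wild type. Cluster_34411 (scaffold_318, 229787 to 229905) and Cluster_34416 (scaffold_318, 322440 to 322558), each 119 bp long, had 527 and 500 reads in rdr2, 7531 and 7463 in rdr6, and 2434 and 2679 in wild type. Whether such loci hold 1 repeated sequence whose reads were shared out was not tested, since no sequence of the authors' build was at hand, so they may not be separate.

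At the edges of the length range there were 204 loci of 31 bp just inside and 288 of 30 bp just outside, and 25 of 200 bp inside and 40 of 201 bp outside. The 31 bp loci with most reads were Cluster_20770, with 23 reads in rdr2, 1 in rdr6 and 11 in wild type, and Cluster_8716 (scaffold_33, 2000134 to 2000164), with 7, 13 and 11. Those of 30 bp were Cluster_15696 (scaffold_74, 1154032 to 1154061), with 15, 23 and 27 reads, and Cluster_17418 (scaffold_86, 641224 to 641253), with 9, 17 and 15. At 200 bp the first was Cluster_32522, with 787 reads in rdr2, 9074 in rdr6 and 3309 in wild type, followed by Cluster_23387 (scaffold_141, 256065 to 256264) with 13, 44 and 5. Just outside, at 201 bp, stood Cluster_32521 (scaffold_276, 369414 to 369614), with 333, 3918 and 1488 reads, and Cluster_28381 (scaffold_208, 174056 to 174256) with 102, 181 and 110. Cluster_32521 and Cluster_32522 lie 3525 bp apart and fall on opposite sides of the limit, with log2 ratios of -2.63 and -2.54 in rdr2 and 0.98 and 1.04 in rdr6 against wild type.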

How the data were processed

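Libraries were made, per the labels' protocols, from Tri-Reagent RNA freed of ribosomal RNA and digested with RNase One, which cuts single strands, with an Illumina small RNA kit. The submitters' processing notes name Bowtie 0.12.9 and SAMtools. Locus names carry the tag Ppv2-0. The sources used here do not give the genome build, the locus caller, strand or how reads with several matches were placed, so loci of repeated sequence may share reads. Each deposited table holds, per the file headers, an unnormalised count and an RPM value for every locus. Library totals are the sum of counts over the sum of RPM. RPM times the total, rounded, returned the deposited count at 99.985% of loci in rdr2, 99.998% in rdr6 and 99.998% in wild type.

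Ratios of RPM have exact Clopper-Pearson 95% intervals from the share of reads that each library holds. They cover counting error only, since the reads carry no molecular identifiers and PCR copies of 1 molecule count several times. Calls were made over all 3763 loci with 20 or more reads. Log2 ratios had a pseudocount of 0.5 reads. Numbers detected at equal depth are exact expectations for sampling without replacement. No count test was run, for lack of replicates. Scaling factors came from edgeR 4.0.16 (TMM) and DESeq2 1.42.0 (median of ratios) in R 4.3.3, and all else from scipy 1.17.1, pandas 2.3.3, numpy 2.4.6 and matplotlib 3.10.9 under Python 3.11.15. The calls were tested on simulated data. Named loci are the 10 highest and 10 lowest called members of each comparison by the interval bound nearest to 1, the 5 members with most reads in each library and most RPM per kb, the 2 with most reads at each edge of the length range, inside and out, and neighbours within 10 kb. Neighbourhoods described singly, length and read classes and like pairs were chosen after values were seen. The members, lists and rules were chosen with earlier results of these data known. No sequence is shown, because no genome of the authors' build was used here.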

Additional observations from a re-analysis of the deposited data

How the results depend on the processing

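Of 77 alternatives, 45 left their result within 1.5-fold of the count or inside the interval of the median, and none turned a median round. In rdr2 against wild type, members called lower numbered 152 (TMM factors), 115 (size factors by median of ratios) and 95 (reads outside the 1% of loci with most reads), members called higher 11, 19 and 27, and the median log2 ratio was -0.78, -0.53 and -0.38. In rdr6 against rdr2 the same scalings gave 28, 33 and 43 lower, 216, 183 and 147 higher, and medians of 0.85, 0.69 and 0.48. The shares of all examined loci called under these scalings are given with the ratios above. In rdr6 against wild type the median was 0.13 under the first and 0.16 under the last of these. A minimum of 50 reads moved the medians to -2.41 (rdr2 against wild type), 0.36 (rdr6 against wild type) and 2.77 (rdr6 against rdr2), and gave 2 lower and 12 higher in rdr6 against wild type and 4 lower in rdr6 against rdr2. A minimum of 1 read gave medians of -1.21, 0.13 and 1.64 in that order. Members with at least 3 reads numbered 1315 in rdr2, 2178 in rdr6 and 1850 in wild type. Detection at equal TMM effective totals, also chosen after seeing the data, gave 2509 in rdr2, 2771.8 in rdr6 and 2782.6 in wild type. Taking in all nuclear scaffolds, a pseudocount of 1 read, or leaving out the 17 members alike in length and counts, which was chosen after seeing the data, moved no count past 1.5-fold and no median out of its interval. The cause of the shifts with scaling and with the read minimum was not tested. No paired analysis was possible because each genotype has 1 library, and for the same reason no library could be left out.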
